A study of Mus musculus with 51 samples.

Results

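CD8+ T cells that carried neither CD103 nor CD69 in AT3-OVA mammary tumors were compared with central memory (CM) CD8+ T cells of the spleen. The tumor cells, called DN here, were sorted as CD103-CD69- at weeks 2, 4 and 6, with 3, 3 and 2 libraries, and the spleen CM cells, labelled Cntrl, had 3 libraries. These 11 libraries were chosen by their titles, out of 43 libraries of 15 groups in the untreated table and 51 in the series. DN cells of week 1 (2 libraries) were left out of the comparison, and the 3 weeks were weighted equally. No library of these groups was treated. The tumors grew from AT3-OVA cells, a mammary carcinoma line of mice that carries ovalbumin, a model antigen; the labels give no mouse strain, age or genotype, and they give the same cell line and a tumor-infiltrating cell type for the spleen samples. CD69+ tumor cells, either CD103-CD69+ (SP) or CD103+CD69+ (DP), and spleen effector memory (EM) cells served as further groups. Libraries were made from 3' ends of messenger RNA. The question that the groups pose is how far tumor cells without either residency marker were like circulating memory cells.

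Memory CD8+ T cells that recirculate leave tissues through S1pr1, a receptor for sphingosine 1-phosphate in blood and lymph, and enter lymph nodes with the help of Ccr7, a chemokine receptor. Tcf7 encodes TCF1, a transcription factor that keeps memory and stem-like T cells able to renew. CD69 binds S1pr1 and removes it from the cell surface, and CD103, the product of Itgae, binds E-cadherin, so that cells bearing both are usually held in tissue. Repeated antigen contact in tumors is known to raise checkpoint receptors such as Pdcd1 and transcription factors such as Tox.

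Values are the authors' normalized values, read as log2, in which a difference of 1 is a change of 2-fold. Levels in this table are not abundances, so only differences within a gene were used. Each difference is the mean of the 3 DN week means minus the CM mean, with its standard error (SE), from limma with Benjamini-Hochberg adjustment over 10560 genes, and a gene counts as called where the adjusted p is below 0.05. A pair of DN libraries of week 4, replicates 1 and 2, were nearly identical: their median absolute difference over genes was 0.0191, where the next closest of 42 replicate pairs had 0.0882 and the median pair 0.191. Without counts it could not be tested whether they differed beyond sampling noise, so results are also given with these libraries averaged and counted as 1. All DN libraries have codes between 46 and 75, and all CM libraries codes between 5 and 42, so a difference between the code runs and a difference between the groups cannot be told apart except through 3 CD69+ tumor libraries in the higher run. The same holds for DN against CD69+ tumor cells, of whose 18 libraries of weeks 2 to 6 the other 15 are in the lower run, and for DN against EM cells, all in the lower run. A fit with the run as a term rests on those 3 libraries, and its counts are given beside the main ones or together after the gene lists. In these bulk samples, fewer cells of a type and less RNA per cell cannot be told apart. Nothing says that the replicates came from separate animals, so p-values measure only the spread between these samples.

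The sort labels were checked first against their genes. Itgae values in CM replicates 1, 2 and 3 were 13.57, 13.26 and 12.96, and in DN cells they ran from 10.98 to 12.69 with a median of 11.61. Every DN library was below every CM library, and the difference was -1.64 ± 0.46 (SE, adjusted p = 0.0157; 0.0668 without CM replicate 1 and 0.0978 with the code run as a term). DN cells were also below the CD69+ tumor cells in Itgae, by -2.79 (adjusted p = 1.2e-06), and in Cd69, by -0.89 (adjusted p = 0.00202; 0.074 with the code run as a term). Cd69 itself was between -0.95 and 0.44 in DN cells and between -1.08 and -0.96 in CM cells, a difference of 0.61 ± 0.30 that did not pass (adjusted p = 0.16). Group means of Cd44, an activation marker, were -0.28 in naive, 2.56 in CM and 3.16 in EM cells of the spleen, so that both memory groups lay above naive cells, as their sort names imply. Cd8a (difference -0.21 ± 0.11) and Cd8b1 (0.47 ± 0.26), the chains of the CD8 coreceptor, did not pass.

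Across the whole table, 2272 of 10560 genes (21.5%) differed between DN and CM cells, 1265 higher in DN cells (12% of all genes) and 1007 lower (9.54%). The median difference over all genes was 0.01. Among the called genes, 400 were higher by more than 1 and 101 were lower by more than 1, and 2214 had the same sign at all 3 weeks. That agreement is in part set in advance, since genes were called on the mean of these weeks against shared CM libraries. The 8 DN and 3 CM libraries did not overlap at 2565 genes (24.3%). Averaging the near-identical pair gave 2187 calls. With the code run as a term 655 genes were called, 404 higher and 251 lower, of which 653 were among the 2272. Without CM replicate 1, 2 or 3 the count was 1583, 1376 and 1433.

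**Figure D1:**
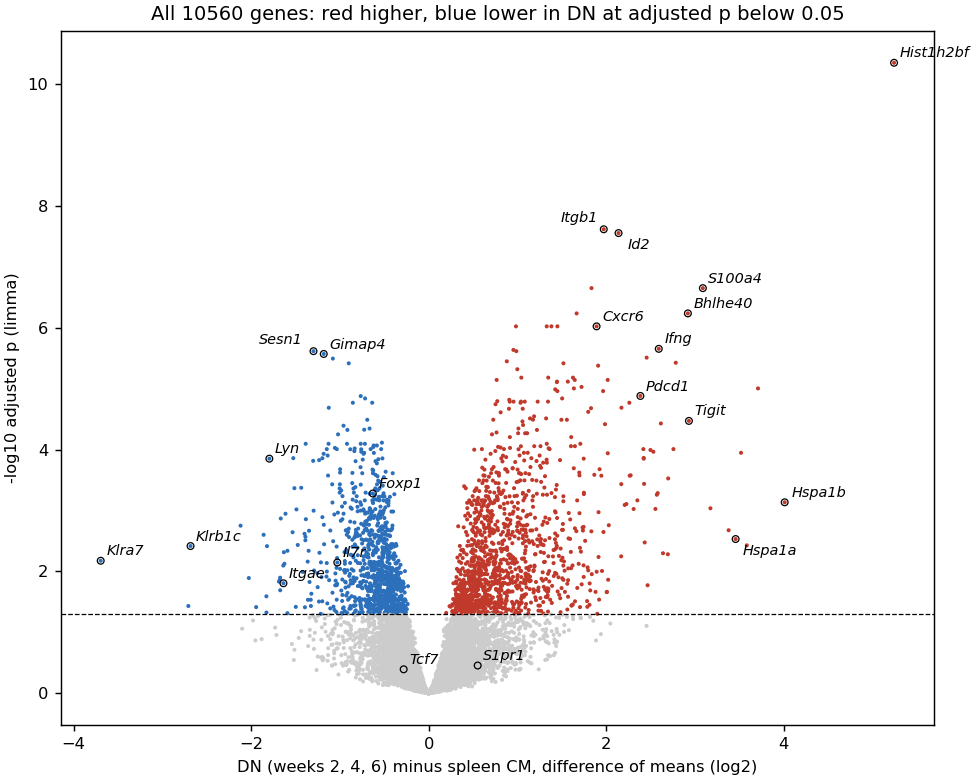
Difference between DN and spleen CM cells (x axis, log2) against -log10 of the adjusted p from limma (y axis) for all 10560 genes; red points were called higher in DN cells, blue points lower, and the dashed line marks an adjusted p of 0.05. Called genes lie on both sides, with 1265 higher and 1007 lower, and the circled S1pr1 and Tcf7 lie under the line.

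The egress and homing receptors S1pr1 and Ccr7 did not pass the test between DN and CM cells. S1pr1 (chr3:115710433-115715072, GRCm38) was -1.83, -2.30 and -2.68 in the CM libraries. In DN libraries it was -1.76, -2.29 and -1.67 at week 2, -1.81, -1.77 and -2.54 at week 4, and -1.31 and -1.10 at week 6. The groups overlapped at weeks 2 and 4, while both week 6 libraries were above the CM libraries. The difference was 0.55 ± 0.40 (adjusted p = 0.351), with a 95% interval from -0.28 to 1.39. Klf2, the transcription factor that drives S1pr1, was 0.13, 0.11 and -0.09 in CM cells and from 0.14 to 1.63 in DN cells. The groups did not overlap, but the difference of 0.86 ± 0.44 did not pass (adjusted p = 0.175). Ccr7, the receptor for lymph node chemokines, differed by 0.30 ± 0.41 (adjusted p = 0.645).

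Of 14 measured egress and homing genes, 2 were higher, 1 was lower and 11 did not pass, with a median difference of 0.19 beside 0.01 over all genes. The called members were the integrin chains Itgal (0.50 ± 0.09) and Itga4 (0.51 ± 0.15), which serve adhesion to vessel walls, and Dock2 (-0.37 ± 0.08), an activator of Rac needed for lymphocyte migration. Itga4 lost its call without CM replicate 1 or 2 (adjusted p up to 0.0555).

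Tcf7 (chr11:52252371-52283014) was 5.41, 5.03 and 4.80 in CM cells. It was 4.97, 4.41 and 4.85 in DN cells at week 2, 4.90, 4.91 and 4.31 at week 4, and 4.93 and 4.98 at week 6. DN values lay within or under the CM range, and the difference of -0.28 ± 0.23 did not pass (adjusted p = 0.405; 95% interval from -0.75 to 0.19). Lef1, the related transcription factor, differed by -0.43 ± 0.35 (adjusted p = 0.403).

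**Figure D2:**
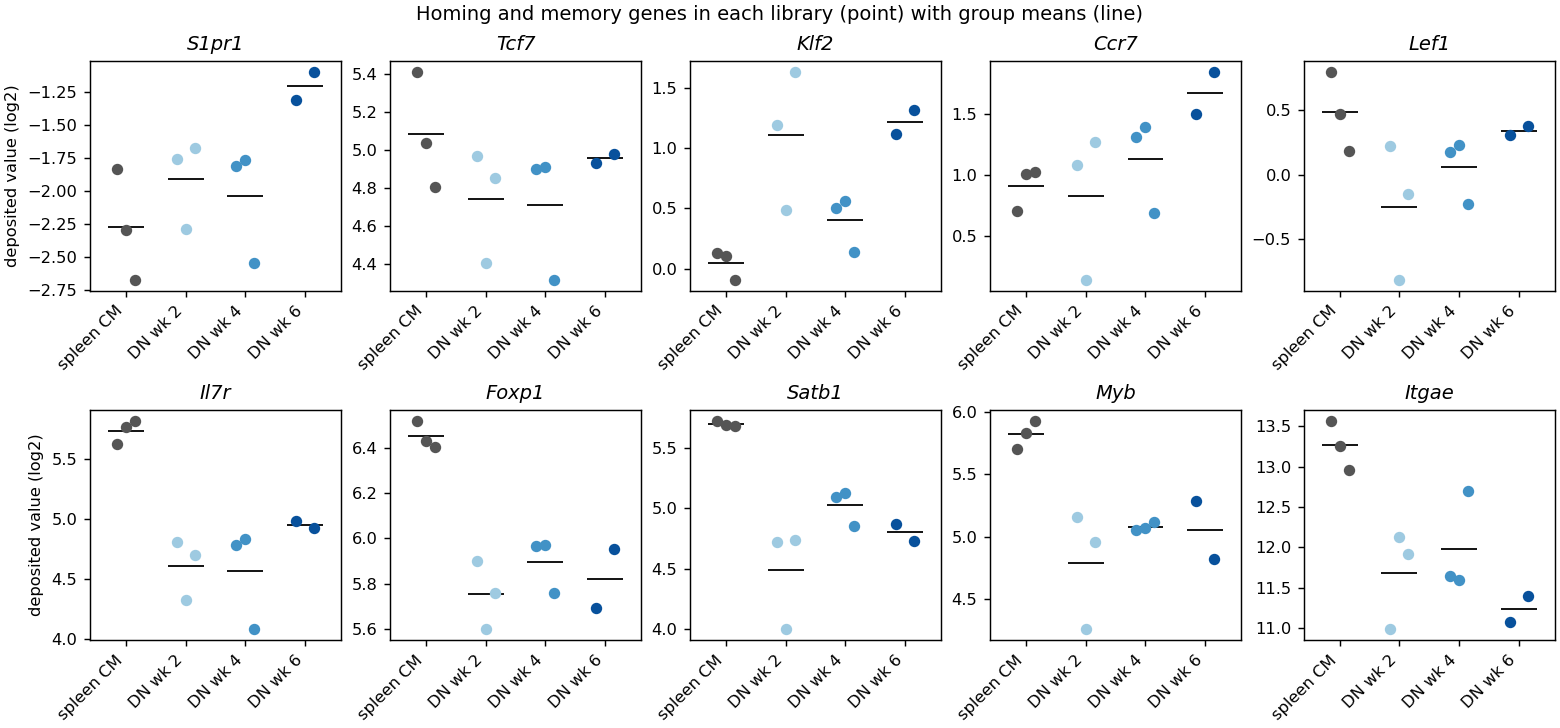
Deposited values (y axis, log2) of 10 homing and memory genes in each spleen CM and DN library (points), with group means (lines); each panel has its own scale that does not start at 0. S1pr1, Tcf7, Ccr7 and Lef1 overlap between the groups, while Il7r, Foxp1, Satb1, Myb and Itgae lie lower in every DN library.

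Other regulators of the quiescent memory state were lower in DN cells. Il7r, the receptor chain for the survival cytokine IL-7, was 5.62, 5.77 and 5.82 in CM cells and ran from 4.08 to 4.98 in DN cells, with a median of 4.80. The groups did not overlap, and the difference was -1.03 ± 0.26 (adjusted p = 0.00715; 0.0789 with the code run as a term). Foxp1, which holds T cells in quiescence, was 6.52, 6.43 and 6.40 in CM cells and 5.60 to 5.97 in DN cells, a difference of -0.63 ± 0.11 (adjusted p = 0.000527). Satb1, a chromatin organizer, differed by -0.92 ± 0.20, Myb, a factor of stem-like CD8+ cells, by -0.85 ± 0.21, and Txk, a Tec-family kinase, by -1.18 ± 0.24. Bcl2, the survival protein, was lower by less (-0.46 ± 0.16, adjusted p = 0.0459) and lost its call when any CM library, week 4 replicate 3 or either week 6 library was left out (adjusted p up to 0.16). Of 21 measured naive and memory regulators, 8 were lower, 0 higher and 13 did not pass, with a median of -0.42. Under the run term 2 were lower, and without CM replicate 2 or 3, 5 were.

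The Gimap genes encode GTPases that support survival of resting lymphocytes and lie together on chromosome 6. Gimap4 (chr6:48684549-48692060) was 5.23, 5.23 and 5.29 in CM cells and stayed between 3.98 and 4.21 in all 8 DN libraries. Gimap6 (chr6:48701582-48708225) was 6.80, 6.83 and 6.84 in CM cells and 5.49 to 5.82 in DN cells. Both separated the groups with little spread on either side: the differences were -1.18 ± 0.12 (adjusted p = 2.7e-06) and -1.13 ± 0.14 (adjusted p = 2.06e-05), and both calls held with the code run as a term. Gimap4 was -1.19, -1.16 and -1.19 at weeks 2, 4 and 6. Of 8 measured members 6 were lower, and Gimap7 (-0.19) and Gimap9 (-0.52) did not pass. The list's median was -0.56, and 2 members were lower with the code run as a term and 3 without CM replicate 2 or 3.

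Ribosomal protein genes differed by smaller amounts. Of 46 measured, 11 were lower and 0 higher, with a median of -0.17. Rps24, a protein of the small subunit, was -1.16, -1.17 and -1.19 in CM cells and -2.15 to -1.71 in DN cells, a difference of -0.71 ± 0.13 (adjusted p = 0.00051). Rpl15, of the large subunit, differed by -1.08 ± 0.20. These genes have many near-identical pseudogenes, to which reads may have been assigned, so single values are uncertain. Quantile normalization gave 17 lower. Spleen EM cells had 20 of the 46 lower than CM cells and 0 higher, with a median of -0.51, where 15.4% of all genes were called in either direction. Against EM cells, DN cells had 13 higher and 0 lower, with a median of 0.29 (6 and 0 with the code run as a term).

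Egress and homing genes were higher in DN than in CD69+ tumor cells: 11 of 14 measured were higher and 0 lower, with a median of 0.95. Of 21 naive and memory regulators 13 were higher and 1 lower, with a median of 0.60. S1pr1 was higher in DN than in CD69+ tumor cells of the same weeks by 3.04 (adjusted p = 1.5e-07), Lef1 by 2.34, Klf2 by 2.15, Il7r by 1.42 and Tcf7 by 1.30 (adjusted p = 1.89e-06). In this comparison 2644 of 10560 genes (25%) were called, 13.6% higher and 11.5% lower. Il7r lay between the groups, above CD69+ tumor cells and below CM cells. Group means of S1pr1 were -1.91, -2.04 and -1.20 in DN cells at weeks 2, 4 and 6, from -5.63 to -4.53 in SP cells and from -4.93 to -4.23 in DP cells, and -1.39 in spleen EM cells. Of 14 cytotoxic genes 7 were lower in DN than in CD69+ tumor cells and 0 higher, with a median of -0.34, and of 26 residency genes 20 were lower and 0 higher, with a median of -0.71. The residency list includes Itgae, a gene of the sort itself, so part of its count was set by the sort. Gzmb and Gzma, which encode granzymes, were lower by -1.91 each (adjusted p = 0.000286 and 5.76e-06), and Zfp683, which encodes Hobit, a residency factor, was lower by -1.52 (adjusted p = 4.64e-05). Pdcd1 (-0.26, adjusted p = 0.321), Ifng (-0.09, adjusted p = 0.735) and Id2 (-0.18, adjusted p = 0.195) did not pass between DN and CD69+ tumor cells. Of 15 checkpoint receptors, however, 8 were lower in DN cells and 1 higher, with a median of -0.60. Exhaustion factors had 4 of 11 lower and 0 higher, and cytokines and chemokines 4 of 15 lower and 1 higher. Effector and central memory genes had 6 of 21 lower and 6 higher. Of 37 cell cycle genes 14 were lower and 0 higher, with a median of -0.27. Fitting the code run as a term left 591 calls of 10560 genes, 329 higher and 262 lower. The counts were then 8 higher egress and homing genes, 9 higher memory regulators, 5 lower cytotoxic and 8 lower residency genes. Lower checkpoint receptors then numbered 2, exhaustion factors 1, cytokines and chemokines 2, effector and central memory genes 3 and cell cycle genes 2. The higher ones numbered 1, 0, 1, 5 and 0, in the same order. S1pr1 (3.43, adjusted p = 0.000114), Lef1, Klf2, Il7r, Tcf7, Gzmb, Gzma and Zfp683 (adjusted p = 0.0273) stayed called.

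Spleen EM cells, which share the CM libraries as their baseline here, differed from CM cells at 1626 genes (15.4%), and from DN cells at 2062 (19.5%), of which genes higher in DN cells made up 10.6% of the table and lower ones 8.9%. Cx3cr1, a chemokine receptor of effector-type cells, was 3.48 higher in EM than in CM cells and 0.81 higher in DN than in CM cells, and DN cells were 2.67 below EM cells (adjusted p = 5.18e-07). Gzma was likewise 2.86 lower in DN than in EM cells (adjusted p = 2.58e-05), and Tbx21, the factor T-bet of effector cells, 0.76 lower (adjusted p = 0.00926). DN cells were above EM cells in Pdcd1 by 1.64 (adjusted p = 0.000578), Lag3 by 1.74, Tox by 0.93 and Rbpj, the Notch pathway factor, by 1.76 (adjusted p = 7.06e-06). Id2 (0.16, adjusted p = 0.506), Itgb1 (0.10, adjusted p = 0.676) and Mki67 (-0.01, adjusted p = 0.966) did not pass between DN and EM cells. Of 14 egress and homing genes 0 were higher in DN than in EM cells and 5 lower (1 with the code run as a term), with a median of -0.32. In all, 544 genes were called between DN and EM cells with the run as a term, 345 higher and 199 lower in DN cells. Cx3cr1, Gzma, Pdcd1 (adjusted p = 0.0145) and Rbpj were then still called, while Lag3 (adjusted p = 0.0654), Tox (0.0782) and Tbx21 (0.151) were not.

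**Figure D3:**
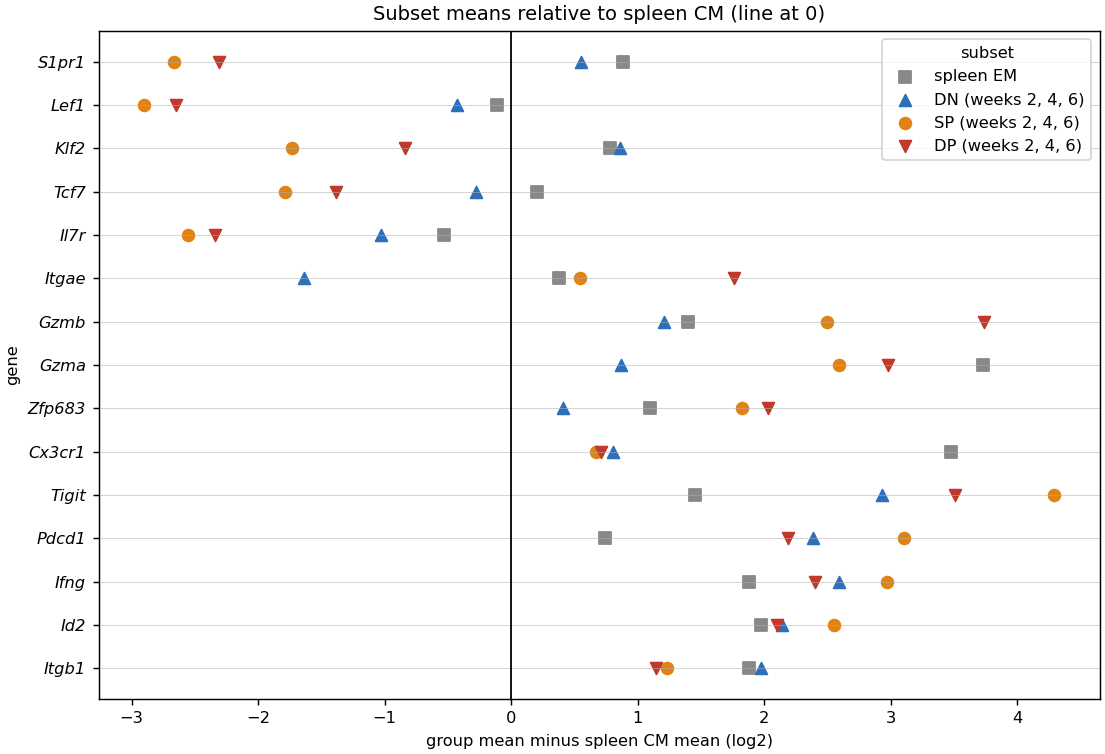
Mean of each subset minus the spleen CM mean (x axis, log2) for 15 genes, with EM as squares, DN as upward triangles, SP as circles and DP as downward triangles, and tumor weeks 2, 4 and 6 weighted equally. For S1pr1, Lef1, Klf2 and Tcf7 the DN symbols lie near the spleen symbols and apart from SP and DP, and for Pdcd1 and Ifng near those of the other tumor subsets. For Id2 the DN symbol lies near the EM square as well as near SP and DP.

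Transcription factors of effector differentiation were higher in DN than in CM cells. Id2 (chr12:25093799-25097140), an inhibitor of E proteins that promotes effector fate, was 3.98, 4.20 and 4.39 in CM cells and 5.99 to 6.70 in DN cells, with a median of 6.19. The ranges were apart by more than 1, and the difference was 2.14 ± 0.16 (adjusted p = 2.8e-08). Bhlhe40, which maintains mitochondrial function in resident and tumor T cells, was 3.87, 3.95 and 3.83 in CM cells and 6.32 to 7.51 in DN cells, higher by 2.92 ± 0.27 (adjusted p = 5.83e-07). Irf4, induced by T-cell receptor signalling, was higher by 1.31 ± 0.22 and Rbpj by 1.29 ± 0.20. Tbx21 (0.59 ± 0.19) was called but lost its call without CM replicate 1 or 2 or DN week 6 replicate 2 (adjusted p up to 0.187), and Eomes, its relative of memory and exhausted cells, did not pass (0.33 ± 0.26, adjusted p = 0.39). Of 21 measured effector and central memory genes 10 were higher and 1 lower (5 and 0 with the code run as a term, and 5 higher without CM replicate 1), with a median of 0.62.

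Exhaustion-associated transcription factors overlapped with that list in part. Nr4a2, an orphan receptor induced by antigen, was 11.25, 11.20 and 10.90 in CM cells and 13.06 to 14.29 in DN cells, higher by 2.42 ± 0.37 (adjusted p = 0.000141). Nr4a3, its relative, was higher by 1.50 ± 0.20 (adjusted p = 3.25e-05), and Tox2 by 1.61. Tox, the factor that fixes the exhausted state, was higher by 0.75 ± 0.20 (adjusted p = 0.0109; 0.0735 without CM replicate 1). Ikzf2, which encodes Helios, was lower by -1.14 ± 0.37, with -0.60, -0.62 and -2.21 at weeks 2, 4 and 6. That call was lost when any single CM library was left out (adjusted p up to 0.0997). Of 11 measured members 7 were higher and 1 lower, with a median of 0.85. With the code run as a term 3 were higher, and without CM replicate 1, 4 were. Spleen EM cells had 4 of the 11 higher than CM cells and 0 lower, with a median of 1.15, where 15.4% of all genes were called in either direction. With the code run as a term EM cells again had 4 higher and 0 lower, beside 910 higher and 801 lower of 10560 genes. Against EM cells, DN cells had 2 higher and 3 lower, with a median of -0.03 (0 and 0 with the code run as a term).

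Among checkpoint receptors, 6 of 15 measured were higher in DN cells and 0 lower, with a median of 0.57. Pdcd1 (chr1:94038305-94052553), which encodes PD-1, was 13.47, 14.03 and 14.44 in CM cells. In DN cells it was 16.70, 16.88 and 16.86 at week 2, 16.12, 16.09 and 15.97 at week 4, and 16.31 and 16.14 at week 6. All DN libraries were above all CM libraries, with week 2 highest, and the difference was 2.38 ± 0.29 (adjusted p = 1.32e-05). Tigit (chr16:43648867-43664146), a receptor for nectin-type ligands, was 8.86, 8.69 and 8.29 in CM cells and 11.13 to 12.58 in DN cells, higher by 2.93 ± 0.39 (adjusted p = 3.39e-05). Lag3, which binds MHC class II, was higher by 2.43 ± 0.41, Ctla4 by 1.74 ± 0.37, Havcr2, which encodes TIM-3, by 1.71 ± 0.25, and Cd274, which encodes the ligand PD-L1, by 0.72. Entpd1 (0.18) and Cd160 (-0.41) did not pass. The fit with the run as a term called 5 of these receptors higher. Spleen EM cells had 3 of the 15 higher than CM cells and 0 lower, with a median of 0.69. Against EM cells, DN cells had 4 higher and 1 lower, with a median of 0.25 (1 and 1 with the code run as a term).

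Of 15 measured cytokine and chemokine genes 7 were higher in DN cells and 0 lower, and the median was 1.00. Ifng (chr10:118441046-118445892), the effector cytokine, was 3.77, 3.97 and 3.95 in CM cells and 5.98 to 7.01 in DN cells, with a median of 6.37. The groups lay 2 units apart, and the difference was 2.59 ± 0.26 (adjusted p = 2.22e-06). Ccl3, an inflammatory chemokine, was higher by 2.50 ± 0.37, Ccl4, a related chemokine, by 1.94 ± 0.32, Tnf by 1.33 ± 0.21 and Ccl5 by 1.00 ± 0.21. Spp1 (-1.06), Xcl1 (0.65) and Il21 (0.71) did not pass. Under the run term, 4 cytokine and chemokine genes were higher.

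Of 14 measured cytotoxic genes 2 were higher, 1 was lower and 11 did not pass, with a median of 0.37. Fasl, the death ligand, was 8.56, 8.58 and 8.58 in CM cells and 9.62 to 10.23 in DN cells, higher by 1.45 ± 0.14 (adjusted p = 9.5e-07). Gzmk, the granzyme of memory-like effectors, was higher by 1.84 ± 0.49 (adjusted p = 0.0111; 0.0533 without CM replicate 1), and Lamp1, a lysosomal membrane protein, was lower by -0.52 ± 0.14, a call lost without CM replicate 3 (adjusted p = 0.0616). Gzmb was 0.23, -0.08 and -0.07 in CM cells and 0.81 to 1.90 in DN cells. Its groups did not overlap, but the difference of 1.20 ± 0.53 did not pass (adjusted p = 0.11). Gzma (0.87 ± 0.37, adjusted p = 0.1) and Prf1, which encodes perforin (0.69), did not pass either.

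**Figure D4:**
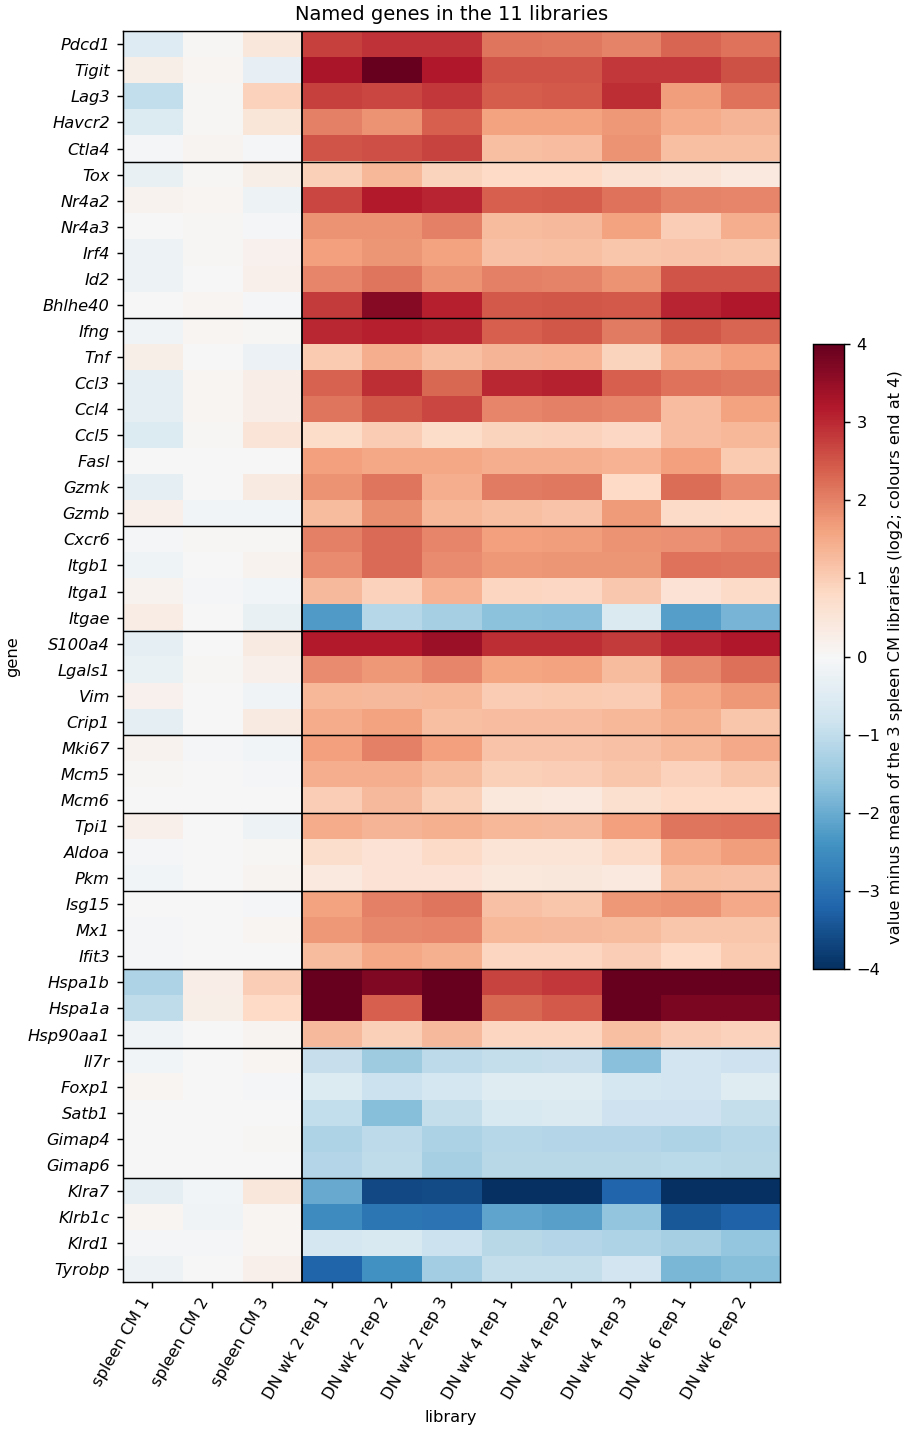
Value minus the mean of the 3 spleen CM libraries (colour, log2, colours end at 4) for named genes (y axis) in each of the 11 libraries (x axis). Checkpoint, cytokine, S100 and heat shock genes are red in all 8 DN libraries, and Gimap genes, Il7r, Klra7, Klrb1c, Klrd1 and Tyrobp are blue. Klrc1, an NK-type receptor gene that was higher, is not drawn.

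Some adhesion and chemokine receptor genes also differed. Itgb1, the beta chain of collagen, laminin and fibronectin receptors, was 2.61, 2.81 and 2.95 in CM cells and 4.53 to 5.05 in DN cells. No library fell between the groups, and the difference was 1.97 ± 0.14 (adjusted p = 2.42e-08). Itga1, which pairs with Itgb1 to bind collagen, was higher by 0.94 ± 0.26, a call lost without CM replicate 3 (adjusted p = 0.0553). Of 12 measured integrin genes 4 were higher, 1 (Itgae) was lower and 7 did not pass, with a median of 0.27. Over all genes 12% were higher and 9.54% lower. Cxcr6, the receptor for Cxcl16 and a marker of tissue T cells, was 6.13, 6.26 and 6.27 in CM cells and 7.87 to 8.50 in DN cells, higher by 1.89 ± 0.18 (adjusted p = 9.5e-07). Cx3cr1 was higher by 0.81 ± 0.25, a call lost when any single CM library was left out (adjusted p up to 0.0721). Of 13 measured chemokine receptors 3 were higher, 0 lower and 10 did not pass, with a median of 0.28. Cxcr3, the receptor for interferon-induced chemokines, did not pass (0.28 ± 0.18, adjusted p = 0.29).

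Of 26 measured tissue residency genes 12 were higher and 1 lower in DN cells, with a median of 0.61, although the cells were sorted for lack of CD103 and CD69. The higher members included Isg20, an RNA exonuclease (1.65 ± 0.19, adjusted p = 7.2e-06), Litaf, a lysosomal regulator (0.96 ± 0.17), Rgs1, which dampens chemokine receptor signals (1.36), and Ahr, a ligand-activated transcription factor (0.97). Itgae was the lower member, and Zfp683 did not pass (0.41 ± 0.35, adjusted p = 0.441). Cdh1, which encodes E-cadherin (2.21 ± 0.42), was among the higher members and is also a marker of epithelial cells; it is counted in the residency, TGF-beta response and tumor epithelial lists alike. Under the run term, 6 residency genes were higher. Of 15 TGF-beta response genes 5 were higher and 3 lower, among them Tgfbi, an extracellular matrix protein (-1.35 ± 0.32), and Smad4, the shared signal transducer (-0.36 ± 0.09); the median was 0.25. Without any of the CM libraries, and in the fit of the 4 groups compared alone, 3 TGF-beta response genes were higher.

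The S100, annexin and galectin list had 9 of 16 measured members higher and 0 lower, with a median of 0.95, and the same count with the code run as a term. S100a4 (chr3:90603771-90606045), a calcium-binding protein of effector and motile cells, was -4.15, -3.81 and -3.42 in CM cells and -0.98 to -0.39 in DN cells, with a median of -0.69. The groups were far apart, and the difference was 3.09 ± 0.26 (adjusted p = 2.24e-07). Lgals1, which encodes galectin-1, was higher by 1.80 ± 0.23, Vim, the intermediate filament vimentin, by 1.33 ± 0.13, and Crip1, a LIM-domain protein, by 1.32 ± 0.17. S100a4 was also 3.72 higher in EM than in CM cells.

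Some NK-type receptor and adaptor genes were lower in DN cells. Klra7, an inhibitory Ly49 receptor for MHC class I, was 3.42, 3.67 and 4.25 in CM cells and ran from -0.65 to 1.77 in DN cells, with a median of -0.05. The groups did not overlap, and the difference was -3.69 ± 0.91 (adjusted p = 0.00669; 0.0738 with the code run as a term). Klrb1c, which encodes NK1.1, was lower by -2.68 ± 0.62, Tyrobp, the adaptor DAP12, by -1.67 ± 0.33, and Klrd1, which encodes CD94, by -1.11 ± 0.24, while Klrc1, which encodes NKG2A, was higher by 1.05. Of 12 measured members 4 were lower, 1 was higher and 7 did not pass, with a median of -0.59. Ly49 genes are close copies of each other, and reads may have been split among them. Tyrobp is also a myeloid gene, and 4 of 11 measured myeloid markers were lower as well.

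Of 19 measured cytokine receptors, Il7r included, 7 were lower and 2 higher, with a median of -0.04; without CM replicate 2, 4 were lower. Il4ra was lower by -0.94 ± 0.18, Il17ra by -0.52 ± 0.12 and Il2rg, the common gamma chain, by -0.51 ± 0.09, whereas Il15ra, which presents IL-15, was higher by 1.72 ± 0.20 (adjusted p = 9.38e-06). Among 14 costimulatory receptors and ligands 6 were higher and 3 lower, with a median of 0.33, and 3 were higher without CM replicate 1. Icos was higher by 1.56 ± 0.21 (adjusted p = 3.25e-05) and Tnfrsf1b, a TNF receptor, by 1.09 ± 0.15, while Cd27 was lower by -0.81 ± 0.15 and Tnfsf8, the ligand of CD30, by -1.15 ± 0.17. The T-cell receptor complex and its kinases had a median of 0.02, with 1 of 21 higher (Thy1, 0.89 ± 0.14) and 3 lower (Txk, Ptprc at -0.65 ± 0.10 and Cd2 at -0.31 ± 0.10). Cd2 lost its call without CM replicate 2 or 3 (adjusted p up to 0.11).

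Cell cycle genes were higher in DN than in CM cells. Mki67, the proliferation marker, was 3.72, 3.52 and 3.45 in CM cells and 4.71 to 5.58 in DN cells, higher by 1.44 ± 0.17 (adjusted p = 7.82e-06). The replication helicase subunits Mcm5 (1.14 ± 0.15), Mcm6 (0.79 ± 0.13) and Mcm2 (0.67 ± 0.13) were higher too. Of 37 measured members 24 were higher and 0 lower, with a median of 0.71 and medians of 0.86, 0.66 and 0.55 at weeks 2, 4 and 6. With the code run as a term 7 were higher, and leaving out single libraries gave 14 (without CM replicate 3) to 26. Ccnb1 (0.04) and Cdk1 (0.23), the mitotic cyclin and its kinase, did not pass. Mki67 was 1.46 higher in EM than in CM cells.

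Histone transcripts gave the farthest separation among the named genes. Hist1h2bf (chr13:23573736-23574196), a replication-dependent histone H2B gene, was -22.99, -22.62 and -22.33 in CM cells and -17.90 to -17.07 in DN cells. The difference was 5.24 ± 0.26 (adjusted p = 4.48e-11), with 5.20, 5.19 and 5.34 at weeks 2, 4 and 6. In EM cells it was 5.02 above CM cells (adjusted p = 3.88e-09). Hist1h2ab, a histone H2A gene, was higher by 3.52 ± 0.53 (adjusted p = 0.000113). Genes of this cluster are near-identical copies, their mRNAs mostly lack poly(A) tails, and the libraries were primed at poly(A), so both values are uncertain as measures of histone mRNA.

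Heat shock chaperones, which refold proteins under stress, were higher in DN cells: 9 of 13 measured were higher and 0 lower, with a median of 0.88 (6 higher with the code run as a term). Hspa1b was 5.76, 7.25 and 7.97 in CM cells. In DN cells it was 11.58, 10.70 and 11.84 at week 2, 9.69, 9.82 and 11.45 at week 4, and 11.42 and 11.20 at week 6. Every DN library was above every CM library, but the CM libraries themselves spread over more than 2 units. The difference was 4.01 ± 0.75 (adjusted p = 0.000735), and that of Hspa1a was 3.46 ± 0.77 (adjusted p = 0.00295). Hsp90aa1 (1.03 ± 0.13), Bag3, a co-chaperone (1.06 ± 0.23), and Hsp90ab1 (0.65 ± 0.11) were higher by less, and the mitochondrial chaperones Hspd1 (0.30) and Hspe1 (0.01) did not pass.

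Hspa1b and Hspa1a are paralogs. Their 3' end reads may have been hard to tell apart, which was not tested, and the promoters shown here do not bear on that. The 250 bases before each gene start are printed from RefSeq (GRCm38.p6, minus strand, chr17:34959239-34959488 and chr17:34972157-34972406), with matches to the core of the heat shock element in capitals.
Hspa1b: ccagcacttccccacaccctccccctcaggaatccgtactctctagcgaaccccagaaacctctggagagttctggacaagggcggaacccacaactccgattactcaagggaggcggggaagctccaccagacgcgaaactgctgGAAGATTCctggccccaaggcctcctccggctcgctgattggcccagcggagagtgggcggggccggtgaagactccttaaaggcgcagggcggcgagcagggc
Hspa1a: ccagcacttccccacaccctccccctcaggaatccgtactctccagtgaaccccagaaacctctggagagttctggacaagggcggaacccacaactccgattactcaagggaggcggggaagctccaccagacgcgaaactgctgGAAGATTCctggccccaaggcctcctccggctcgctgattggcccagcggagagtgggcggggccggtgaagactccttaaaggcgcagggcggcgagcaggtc
The promoters were identical at 247 of 250 positions (98.8%), and each held 1 match. The core was searched as GAANNTTC or TTCNNGAA on both strands, and 12.8% of 32851 RefSeq promoters of this length held it. Among the 10 measured chaperone genes whose promoter is listed, 7 held it, 4 of 6 that were higher and 3 of 4 that were not. A match is a description of the letters only.

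Immediate-early genes, the first transcribed after receptor signals or stress, had 8 of 25 members higher and 1 lower, with a median of 0.77. Egr1 was higher by 1.45 ± 0.17 (adjusted p = 7.67e-06), Gadd45b by 1.75 ± 0.31, Fosl2 by 1.18 ± 0.21 and Dusp2, a phosphatase of MAP kinases, by 0.94 ± 0.17, while Egr3 was lower (-0.998). The fit of the 4 groups compared alone called 15 immediate-early genes higher and 0 lower, without Egr3. Fos (1.04), Jun (1.32) and Fosb (1.42) did not pass. Endoplasmic reticulum stress genes had 7 of 15 members higher and 0 lower, with a median of 0.39, among them the chaperones Hspa5 (0.53 ± 0.12), Hsp90b1 (0.39 ± 0.08), Manf (0.64 ± 0.14) and Sdf2l1 (0.82 ± 0.19). With the code run as a term 5 immediate-early genes and 1 endoplasmic reticulum stress gene were higher.

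Interferon-stimulated genes were higher in DN cells in 11 of 25 measured cases and lower in 1 (Ifi44, -1.33), with a median of 0.35. Isg15, a ubiquitin-like modifier, was 0.94, 0.95 and 0.88 in CM cells and 2.05 to 3.07 in DN cells, higher by 1.63 ± 0.26 (adjusted p = 0.000203). Mx1, an antiviral GTPase, was 12.19, 12.26 and 12.35 in CM cells and 13.37 to 14.22 in DN cells, higher by 1.43 ± 0.17 (adjusted p = 1.03e-05). Neither overlapped between the groups. Ifit3, which binds viral RNA complexes, was higher by 1.08 ± 0.18, and Irf7 (0.27) and Stat2 (0.35), which carry the interferon signal, did not pass. In EM cells Isg15 was 0.52 and Ifit3 0.97 below CM cells, and DN cells were above EM cells in both, by 2.16 and 2.05 (adjusted p = 1.35e-05 and 2.25e-07). Of the 25 genes 21 were higher in DN than in EM cells (16 with the code run as a term). With the run as a term 6 interferon-stimulated genes were higher, and without CM replicate 3, 7 were.

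The promoters of Isg15 and Ifit3 show the repeats that such genes share. The 250 bases before each start are printed from RefSeq (GRCm38.p6; Isg15 on the minus strand at chr4:156200819-156201068, Ifit3 on the plus strand at chr19:34583279-34583528), with matches to the core of the interferon response element in capitals.
Isg15: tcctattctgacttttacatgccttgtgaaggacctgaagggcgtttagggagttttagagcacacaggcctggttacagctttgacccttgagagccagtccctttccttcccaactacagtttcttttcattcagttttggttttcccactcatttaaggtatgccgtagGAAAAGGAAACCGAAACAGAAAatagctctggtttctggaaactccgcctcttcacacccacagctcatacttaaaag
Ifit3: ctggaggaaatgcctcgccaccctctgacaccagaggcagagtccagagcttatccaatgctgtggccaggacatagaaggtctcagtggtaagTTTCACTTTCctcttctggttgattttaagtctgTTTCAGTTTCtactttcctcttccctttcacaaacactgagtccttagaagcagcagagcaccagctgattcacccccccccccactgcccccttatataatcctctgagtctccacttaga
The core was searched as GAAANNGAAA or TTTCNNTTTC on both strands, and matches may overlap: Isg15 held 3 and Ifit3 2. It was present in 2.98% of the 32851 promoters. Among 17 measured members whose promoter is listed, 8 held it, 5 of 7 that were higher and 3 of 10 that were not. MHC class I presentation genes, which interferon also induces, had 5 of 15 members higher and 0 lower with a median of 0.11, among them Tap2, the peptide transporter (0.68 ± 0.11), and H2-D1, a class I heavy chain (0.42 ± 0.07).

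Glycolysis and hypoxia genes were higher in 12 of 25 cases and lower in 0, with a median of 0.35. Tpi1, triosephosphate isomerase, was 4.62, 4.40 and 4.20 in CM cells, 5.89, 5.76 and 5.81 in DN cells at week 2, 5.72, 5.71 and 6.06 at week 4, and 6.56 in both libraries of week 6. The groups did not overlap, week 6 was highest, and the difference was 1.67 ± 0.15 (adjusted p = 5.83e-07). Aldoa, aldolase, was 1.28, 1.33 and 1.38 in CM cells and 1.87 to 2.99 in DN cells, higher by 0.96 ± 0.12 (adjusted p = 1.63e-05), and Pkm, pyruvate kinase, was higher by 0.71 ± 0.10. Hif1a, the oxygen-sensing factor, was higher by 0.77 ± 0.14 and Vegfa, one of its targets, by 1.18. By week, 7, 8 and 16 members were higher at weeks 2, 4 and 6, against 10.8%, 6.3% and 10.9% of all genes. The level of tumor epithelial markers, given below, was also highest at week 6, and its part in this was not tested. DN cells were above EM cells in Tpi1 by 2.18 (adjusted p = 1.34e-08) and in Aldoa by 1.31, and 19 of the 25 genes were higher and 1 lower than in EM cells (12 and 0 with the code run as a term).

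Oxidative phosphorylation genes were higher in 8 of 21 cases (5 without CM replicate 2) and lower in 1, with a median of 0.27; Cox8a, a subunit of cytochrome oxidase, was higher by 1.04 ± 0.13 (adjusted p = 1.63e-05) and Ndufa2, of complex I, by 1.05 ± 0.22. Fatty acid genes had 2 higher and 1 lower of 14, with a median of 0.03. Acadl (0.62 ± 0.13) and Ech1 (0.65 ± 0.11), enzymes of fatty acid oxidation, were the higher members and Cpt2 (-0.78 ± 0.24) the lower, which lost its call without any of the CM libraries or week 6 replicate 2 (adjusted p up to 0.0959). Cholesterol genes had 3 of 18 higher and 0 lower, with a median of 0.16 (1 higher without CM replicate 3), led by Sqle, squalene epoxidase (0.78 ± 0.21), whose call was lost without CM replicate 3 (adjusted p = 0.0745).

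Genes of cell death control moved in both directions. Pmaip1, which encodes the BH3-only protein NOXA, was higher by 1.99 ± 0.27 (adjusted p = 3.83e-05), Bid by 0.84 ± 0.22 and Bcl2l1, the survival protein BCL-XL, by 0.68 ± 0.13. Bcl2l11, which encodes BIM, was lower by -0.56 ± 0.12. In all, 4 of 11 Bcl2 family genes were higher and 2 lower, with a median of 0.10. Among 14 measured p53 targets 4 were higher and 2 lower, with a median of 0.13: Sesn1, a sestrin that restrains mTORC1, was lower by -1.30 ± 0.13 (adjusted p = 2.43e-06), while Gadd45a (1.62 ± 0.41) and Cdkn1a, the cell cycle inhibitor p21 (1.01 ± 0.29), were higher. Cdkn1a lost its call without CM replicate 3 (adjusted p = 0.0636). Under the run term 0 p53 targets were higher, with adjusted p = 0.0759 for Gadd45a and 0.131 for Cdkn1a.

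**Figure D5:**
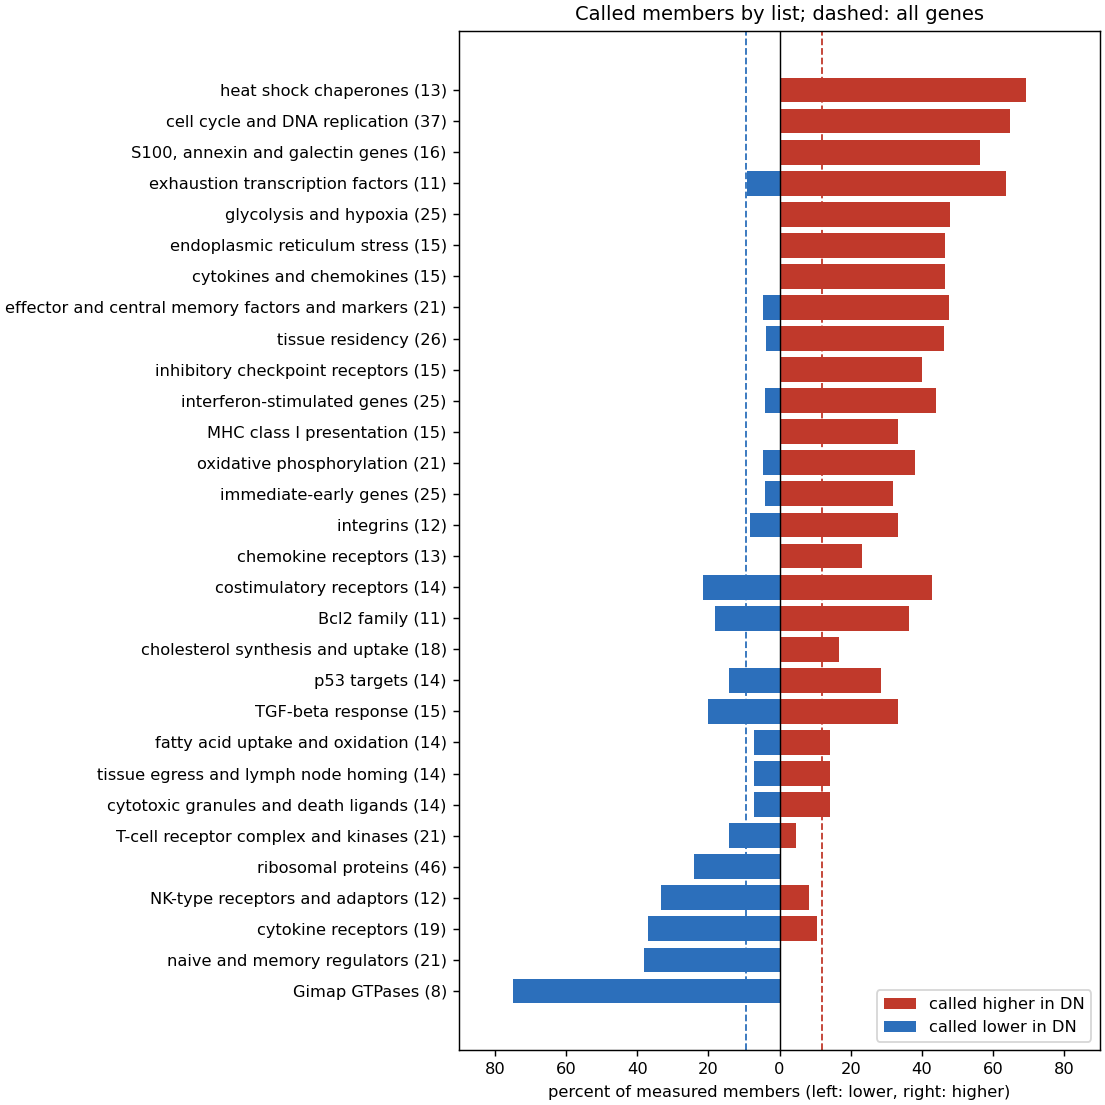
Percent of the measured members of each gene program list (number in brackets) that were called higher in DN cells (red, right) or lower (blue, left). Lists of markers of other cells are not drawn. Dashed lines mark the percent of all genes, 12% higher and 9.54% lower. Heat shock chaperones (9 of 13), cell cycle genes (24 of 37) and exhaustion factors (7 of 11) have the longest red bars, and the Gimap genes the longest blue bar, 6 of 8.

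For lists whose count with the run as a term is not given above, the higher members then numbered 5 for glycolysis and hypoxia, 3 for oxidative phosphorylation, 2 each for integrins, costimulatory receptors, the Bcl2 family and MHC class I presentation, 1 each for chemokine receptors, TGF-beta response, cholesterol, fatty acid, cytotoxic and egress genes, and 0 for NK-type receptors. The lower members then numbered 5 for ribosomal proteins, 3 for NK-type receptors, 2 each for cytokine receptors, costimulatory receptors and the T-cell receptor complex, 1 each for p53 targets and the Bcl2 family, and 0 for TGF-beta response, egress, integrin, cytotoxic, fatty acid, oxidative phosphorylation, interferon-stimulated, immediate-early and exhaustion factor genes. Beside the genes for which this is stated, Dock2, Itga4, Satb1, Myb, Bcl2, Tbx21, Tox, Ikzf2, Ccl5, Gzmk, Lamp1, Itga1, Cx3cr1, Tgfbi, Smad4, Il17ra, Cd2, Hspa5, Manf, Sdf2l1, Ndufa2, Acadl, Cpt2, Sqle, Bid, Ptn, Poln, Cd93 and Epcam lost their calls with the run as a term, with adjusted p from 0.0529 (Ndufa2) to 0.297 (Bid) and no change of direction. Without week 2 the higher members numbered 6 for effector and central memory genes, 4 for exhaustion factors, 7 for interferon-stimulated and 3 for TGF-beta response genes, and without week 6 1 p53 target and 3 TGF-beta response genes were higher. Setting values below 0 to 0 left 4 higher S100, annexin and galectin genes.

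Other genes with large differences belonged to none of these programs. Rgs16, which shortens G-protein signals, was higher by 2.78 ± 0.30 (adjusted p = 3.76e-06), Casp4, an inflammatory caspase, by 2.76 ± 0.41, Ret, a receptor tyrosine kinase, by 2.70 ± 0.45 and Ptn, the secreted growth factor pleiotrophin, by 3.38 ± 0.72. Ptn was 6.96, 6.50 and 3.51 at week 2, 3.82, 3.99 and 4.20 at week 4, and 7.69 and 8.85 at week 6, against 1.81, 2.72 and 3.27 in CM cells. Lower genes included Lyn, a Src-family kinase of B and myeloid cells (-1.79 ± 0.28, adjusted p = 0.000141), Cd180, a Toll-like receptor relative of B cells (-2.12 ± 0.44), Cadm1, an adhesion molecule (-1.82 ± 0.42), and Cd93, a receptor of endothelial and myeloid cells (-1.64 ± 0.42). Poln, a DNA polymerase, was lower by -2.03 ± 0.56. Cd93 and Poln lost their calls without CM replicate 3 (adjusted p = 0.0598 and 0.0784).

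The weeks were alike in direction for most called genes, in part because genes were called on the mean of these weeks. The weeks differed in the number of calls. Against CM cells, 1974 genes (18.7%) were called at week 2, 1550 (14.7%) at week 4 and 1727 (16.4%) at week 6; with the near-identical pair averaged, week 4 had 870. Between week 6 and week 2 of DN cells 76 genes (0.72%) were called, 56 higher (0.53%) and 20 lower (0.189%) at week 6. This count was 2 without week 6 replicate 1. Aldoa (0.89, adjusted p = 0.0117) and Pkm (0.68, adjusted p = 0.0212) were higher at week 6 than at week 2, and Rgs16 (-1.76, adjusted p = 0.0477) and Bcl2l11 (-0.91, adjusted p = 0.0122) lower. Of the 25 glycolysis and hypoxia genes 4 were higher at week 6 than at week 2. S1pr1 (0.71, adjusted p = 0.615) did not pass between these weeks. Week 4 differed from week 2 at 879 genes (8.32%) and from week 6 at 942 (8.92%), comparisons that rest in part on the near-identical libraries.

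Markers of other cells that a tumor or spleen sort could hold moved with the comparison, and their part in the results was not tested. Tumor epithelial markers were higher in 4 of 6 measured cases, with a median of 1.69 and medians of 1.59, 0.78 and 2.62 at weeks 2, 4 and 6; 2 were higher without CM replicate 1, and 1 without week 6 or with the code run as a term. Their mean level relative to CM cells ran from 0.09 to 2.86 in DN libraries and from -0.48 to 0.46 in CM libraries. The week 6 libraries were highest (2.73 and 2.86), and the means of the week 4 libraries (0.18, 0.18 and 0.09) lay within the CM range. Those means join members that moved in opposite directions. Against CM cells at week 4, 1 member was called higher and 1 lower, so they do not show a lack of epithelial RNA. At week 4, where 2 of the 3 libraries were near-identical, Pdcd1 was 2.08, Ifng 2.32, Id2 1.94 and S100a4 2.90 above CM cells. Whether epithelial RNA had a part in these differences was not tested at any week. Epcam, an epithelial adhesion molecule, was 10.81, 10.81 and 10.88 in CM cells, 11.73, 12.26 and 12.14 at week 2, 12.002, 11.96 and 10.91 at week 4, and 13.39 and 13.73 at week 6. B-cell markers were lower in 3 of 7 cases with a median of -0.94, and their mean level ran from -1.17 to -0.58 in DN and from -0.29 to 0.28 in CM libraries; Ighm, the heavy chain of IgM, was lower by -1.52 ± 0.23 (adjusted p = 0.000138). Dendritic and class II markers were lower in 3 of 8 cases with a median of -0.77 (DN libraries -1.63 to -0.39, CM libraries -0.36 to 0.30), and myeloid markers were lower in 4 of 11 and higher in 1 with a median of -0.60 (DN -1.42 to -0.23, CM -0.31 to 0.27). With the code run as a term 1 B-cell marker and 0 dendritic or myeloid markers were lower. Without week 2 the lower markers numbered 1 for B cells, 1 for dendritic and 2 for myeloid cells. Without CM replicate 2 or 3 they numbered 1 for B cells and 2 for myeloid cells, and myeloid markers also 2 without week 2 replicate 2 or week 6 replicate 1. CD4 and regulatory T-cell markers had 2 of 9 higher (Nrp1 and Ctla4) and 1 lower (Ikzf2), with a median of 0.08. Neutrophil (2 measured), stromal and endothelial (4) and erythroid and platelet (3) markers had no called member, and gamma-delta T, NK and NKT markers had 1 of 5 lower (Klrb1c). Since levels are not abundances here, no marker could be read as absent.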

How the data were processed

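RNA of sorted CD8+ T cells was profiled with QuantSeq 3' mRNA-Seq FWD from 10 ng of total RNA and sequenced as 75 bp single-end reads, per the labels' protocols. Per the submitters' processing notes, HISAT2, HTSeq and mm10 were used; versions are not given. The authors' deposited values hold negative numbers and were taken to be log2; the base is an inference, and the normalization is not given in the sources used here. Counts were not analysed here, so depth is unknown and no counting error can be given.

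The untreated table (10560 genes, 43 libraries) had a rank of 32 after centring, where 42 is the most possible, and its residuals from the 15 group means a rank of 18 of 28. Levels are therefore not abundances. With limma 3.58.1 in R 4.3.3 (statmod 1.5.0), group means were fitted over all 43 libraries with the trend and robust options. Residual degrees of freedom were multiplied by 0.6429, the ratio of these ranks, and residual variances divided by it. P-values were adjusted by Benjamini-Hochberg over all 10560 genes, with no filter on low values. The procedure was run on simulated data with independent noise, from whose residuals 10 directions were removed. Such a run cannot show that the reduction is right for the normalization used here, which is not known.

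The libraries compared, the 39 gene lists (554 of 642 listed genes were found, 5 of them through an older symbol) and the alternatives were chosen with earlier results of these data known. Genes named are the sort and homing markers, the 12 largest called differences in each direction that did not overlap and kept 1 sign over the weeks (predicted genes and receptor segments left out), up to 4 called members of each list with the smallest adjusted p, and a fixed set of memory and effector genes, 160 in all, of which 158 were open to report; the others are not reported here. Further list members are named with their differences only. Gene positions come from GENCODE vM21 (GRCm38) and promoters from RefSeq. Averaging the near-identical libraries, and the run term in the comparisons with CD69+ tumor and EM cells, were chosen after seeing the data. Alternatives changed the fit, the scaling, the filter, the weeks and the libraries.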

Additional observations from a re-analysis of the deposited data

Results flagged for a closer look

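Among the 158 genes examined, 7 had a DN library far from the other 7 of its group, by a gap over the whole range above Dixon's 95% critical value; by chance about 5% of groups would be marked in this way. Week 2 replicate 2 was the lowest library for Satb1 (4.00, the next 4.72, gap ratio 0.640), Myb (4.26, the next 4.83, gap ratio 0.551), Sfpi1 (9.05, the next 9.73, gap ratio 0.536), Fcgr3 (14.38, the next 15.29, gap ratio 0.555). For Fasl, week 6 replicate 2 was lowest (9.62, the next 9.97, gap ratio 0.581). For Cd2, week 2 replicate 3 was highest (4.44, the next 4.23, gap ratio 0.543). For Il2rg, week 2 replicate 1 was highest (5.47, the next 5.24, gap ratio 0.603).

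Other results were marked because the difference from the same CM libraries changed between weeks, tested as the difference between DN weeks in limma with Benjamini-Hochberg adjustment over all genes. Week 6 minus week 2 was positive for Aldoa (0.89), Pkm (0.68). It was negative for Rgs16 (-1.76), Bcl2l11 (-0.91), and the adjusted p of these 4 genes ran from 0.0117 to 0.0477. Week 4 minus week 2 was positive for Tyrobp (1.44), Cd22 (1.39). It was negative for Rgs16 (-1.32), Litaf (-0.68), Mcm6 (-0.59), Hsp90b1 (-0.46), Hspa5 (-0.54), Acadl (-0.58), H2-D1 (-0.31), Krt19 (-5.00), and the adjusted p of these 10 genes ran from 0.000427 to 0.0381. Week 6 minus week 4 was positive for Ptn (4.27), Lamp1 (0.72), Smad4 (0.40), Bag3 (1.16), Hsp90b1 (0.47), Tpi1 (0.73), Aldoa (0.96), Pkm (0.77), Atp5a1 (0.42), Acadl (0.69), Vim (0.62), H2-D1 (0.35), Sesn2 (0.98), Cdkn1a (1.39), Epcam (1.94), Krt19 (6.34). It was negative for Bcl2l11 (-0.64), and the adjusted p of these 17 genes ran from 0.000128 to 0.047. Comparisons with week 4 rest on a pair of near-identical libraries counted as separate samples.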

How the results depend on the processing

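The counts of called genes moved with the fit. For DN against CM cells, with 2272 called, 1265 higher and 1007 lower, unreduced degrees of freedom gave 3775, 2036 and 1739, and the code run as a term gave 655, 404 and 251. For weeks 2, 4 and 6 against CM cells these settings gave 3486, 3215 and 3418, and 710, 429 and 679. Week 6 against week 2 gave 745 with unreduced degrees of freedom and 24 with the 4 groups alone. Averaging the near-identical pair gave 870 at week 4. Leaving out single libraries gave 1376 to 2370 calls in all, 803 to 1340 higher and 565 to 1030 lower; by week 1345 to 2078, 865 to 1760 and 770 to 1947; and 2 to 109 between weeks 6 and 2. Quantile normalization turned the split to 48% higher, from 55.7%. Same-numbered replicates of different groups showed no common deviation (r from -0.22 to 0.28 over 15 pairs, 2 over 0.1). With groups of 2 or 3 libraries and residuals of rank 18 of 28, this cannot exclude that replicate numbers pair samples. The replicate block gave 2621 calls, and 147 between weeks 6 and 2. Among the 160 named genes, 3939 values under the alternatives kept their side of the threshold and direction, 188 lost the call, 57 of them with the run as a term, 8 gained one and 0 reversed. The causes were not tested.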

Other observations

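With DN week 1 included, 2218 genes were called between DN and CM cells, 1959 of them among the 2272 called without it. With each library weighted equally in place of each week, 2238 were called, 2161 of them shared.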
